A study of Homo sapiens with 6 samples.

Results

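The serpins are a family of proteins that share a fold with a flexible reactive loop. In most members a target protease cuts this loop and becomes trapped in a covalent complex, so that inhibitor and protease are both spent, while a few members have no inhibitory role and act as chaperones or hormone carriers. In ovarian cancer the family is known through inhibitors of plasminogen activation, and through the clade B serpins, which lack a classical signal peptide and mostly act inside cells. Serpin mRNA was examined here in polyploid giant cancer cells (PGCCs), in the parental cells they came from and in their daughter cells, in Hey and SKOV3, lines of human ovarian cancer cells that are long established in culture. The genes were taken by symbol, as SERPIN followed by a clade letter from A to I and a number, and 34 genes are described, of the 59008 symbols in the deposited table. The symbol rule left out 7 rows named as pseudogenes.

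Parental cells of each line were untreated. PGCCs had received 500 nM paclitaxel, which stabilizes microtubules and blocks mitosis, for 16 h and had then recovered for 3 days by the treatment label, although the title of the SKOV3 PGCC library gives day 7. Daughter cells had received the same treatment and had recovered for 30 days, and both daughter libraries are labelled as clone 1. Each of the 6 conditions is 1 library, so no value carries a replicate error, and the other cell line is the only repeat of a comparison between states. Levels are transcripts per 1000000 (TPM), which are scaled for transcript length and can therefore be compared between genes, and changes are differences of log2(TPM + 1). A serpin was called higher or lower where this difference was at least 1, a 2-fold change of TPM + 1, which understates the change of genes with a low TPM. Where 3 values are given for a line, they follow the order parental, PGCC, daughter.

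Between 19920 and 25370 genes had a TPM above 0 in a library, the highest number being that of Hey PGCCs. Mitochondrial genes took between 2.64% and 14.8% of the TPM. Of the 7 epithelial ovarian cancer markers that were checked, each library had at least 5 with a TPM of at least 1, though not the same ones. In Hey, EPCAM was at most 1.43 TPM and MUC16 at most 0.0322 TPM. The leukocyte gene PTPRC was listed at 0 in the 3 Hey libraries and was at most 0.425 TPM in SKOV3. The 6 hepatocyte markers, which were examined because many serpins of clade A are made in the liver, summed to at most 0.625 TPM. The 7 leukocyte markers summed to between 1.75 and 70.1 TPM, and CD68 made up most of the sum except in SKOV3 daughter cells. It was highest in Hey PGCCs (69.3 TPM) and lowest in SKOV3 daughter cells (0.840 TPM). The 8 fibroblast markers summed to between 3.08 and 28.3 TPM, highest in SKOV3 daughter cells. Of 5 endothelial markers, which summed to between 0.343 and 49.1 TPM, 1 at most reached 1 TPM in a library. The part of these markers in the serpin values was not tested. In bulk RNA, fewer cells of a kind and less mRNA per cell cannot be told apart.

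SERPINB2, SERPINB5 and SERPINB7, in a serpin cluster on the long arm of chromosome 18, carry much of what follows, and the regions at their starts are shown with that of a neighbour in the cluster, SERPINB8, which did not pass the 2-fold threshold between any states. Each sequence is the RefSeq window from 250 bases before to 50 bases after the gene start on the plus strand of GRCh38.p14, and capitals mark matches to an AP-1 motif (TGANTCA, on both strands), the NF-kB motif (searched on both strands) or a TATA box (TATAAA, on both strands). The windows lie at chr18:63887455-63887754 for SERPINB2, chr18:63476708-63477007 for SERPINB5, chr18:63752807-63753106 for SERPINB7 and chr18:63969831-63970130 for SERPINB8. The SERPINB2 window lies inside the span that GENCODE gives the gene, whose outermost start is further upstream.
SERPINB2: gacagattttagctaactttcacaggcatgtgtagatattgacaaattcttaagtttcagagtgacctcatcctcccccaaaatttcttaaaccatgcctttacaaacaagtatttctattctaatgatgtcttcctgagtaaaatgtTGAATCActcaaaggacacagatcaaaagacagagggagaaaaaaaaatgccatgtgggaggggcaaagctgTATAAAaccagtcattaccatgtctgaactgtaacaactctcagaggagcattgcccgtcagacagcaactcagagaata
SERPINB5: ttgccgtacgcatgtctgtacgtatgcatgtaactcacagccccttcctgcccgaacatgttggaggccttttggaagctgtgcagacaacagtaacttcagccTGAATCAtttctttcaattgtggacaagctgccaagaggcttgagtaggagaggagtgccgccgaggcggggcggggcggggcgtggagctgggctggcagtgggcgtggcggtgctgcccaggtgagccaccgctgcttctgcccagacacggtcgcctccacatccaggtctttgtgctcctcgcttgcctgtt
SERPINB7: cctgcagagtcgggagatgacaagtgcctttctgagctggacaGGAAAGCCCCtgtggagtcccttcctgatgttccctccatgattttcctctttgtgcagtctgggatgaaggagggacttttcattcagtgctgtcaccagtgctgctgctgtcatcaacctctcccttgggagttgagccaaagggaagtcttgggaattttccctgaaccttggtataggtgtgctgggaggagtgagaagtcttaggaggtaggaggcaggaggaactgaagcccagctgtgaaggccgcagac
SERPINB8: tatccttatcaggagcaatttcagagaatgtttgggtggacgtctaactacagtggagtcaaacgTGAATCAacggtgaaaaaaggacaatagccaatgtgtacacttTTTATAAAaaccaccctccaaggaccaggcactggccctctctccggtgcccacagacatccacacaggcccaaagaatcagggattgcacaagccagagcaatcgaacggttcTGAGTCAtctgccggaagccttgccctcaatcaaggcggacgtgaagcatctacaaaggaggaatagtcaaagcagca

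The SERPINB2 window holds 1 AP-1 match from position -102 to -96 and a TATA box from -30 to -25, counted from the gene start. SERPINB5 holds 1 AP-1 match from -146 to -140, SERPINB7 holds 1 NF-kB match from -207 to -198, and SERPINB8 holds 2 AP-1 matches and 2 overlapping TATA matches. A RefSeq window was matched for 27 of the 34 serpins. In the chromosome 18 cluster of 10 serpins, SERPINB10 and SERPINB11 have no window. AP-1 letters were found in 5 of the 8 windows of the chromosome 18 cluster and in 2 of the 19 other serpin windows, against 7.76% of 27305 windows of all genes. NF-kB letters were found in 1 of the 27 serpin windows, against 5.67% of all windows, and TATA letters in 6, against 12%. These matches describe the letters only, and 2 of the 5 AP-1 windows belong to SERPINB12 and SERPINB13, which were listed at 0 in all 6 libraries.

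Of the 34 serpins, 15 reached a TPM of at least 1 in some library, 14 were above 0 but under 1 TPM throughout, and 5 were listed at 0 in every library. The 5 were SERPINA4 (kallistatin), SERPINA11, SERPINA12 (vaspin), SERPINB12 and SERPINB13. The 14 low genes included plasma serpins made mainly by the liver, such as SERPINC1 (antithrombin, at most 0.301 TPM), SERPIND1 (heparin cofactor II, at most 0.439 TPM), SERPINF2 (α2-antiplasmin, at most 0.245 TPM), SERPINA5 (protein C inhibitor, at most 0.799 TPM), SERPINA7 (thyroxine-binding globulin, at most 0.0206 TPM) and SERPINA10 (at most 0.0858 TPM). SERPINA2, SERPINA9, SERPINB3, SERPINB4, SERPINB11, SERPINE3, SERPINF1 and SERPINI2 also stayed under 1 TPM, with SERPINA9 the highest of these at 0.612 TPM. SERPINB3 and SERPINB4, which encode the squamous cell carcinoma antigens, are near-identical copies, as SERPINA1 and SERPINA2 are related, so reads may have been split between them.

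**Figure D1:**
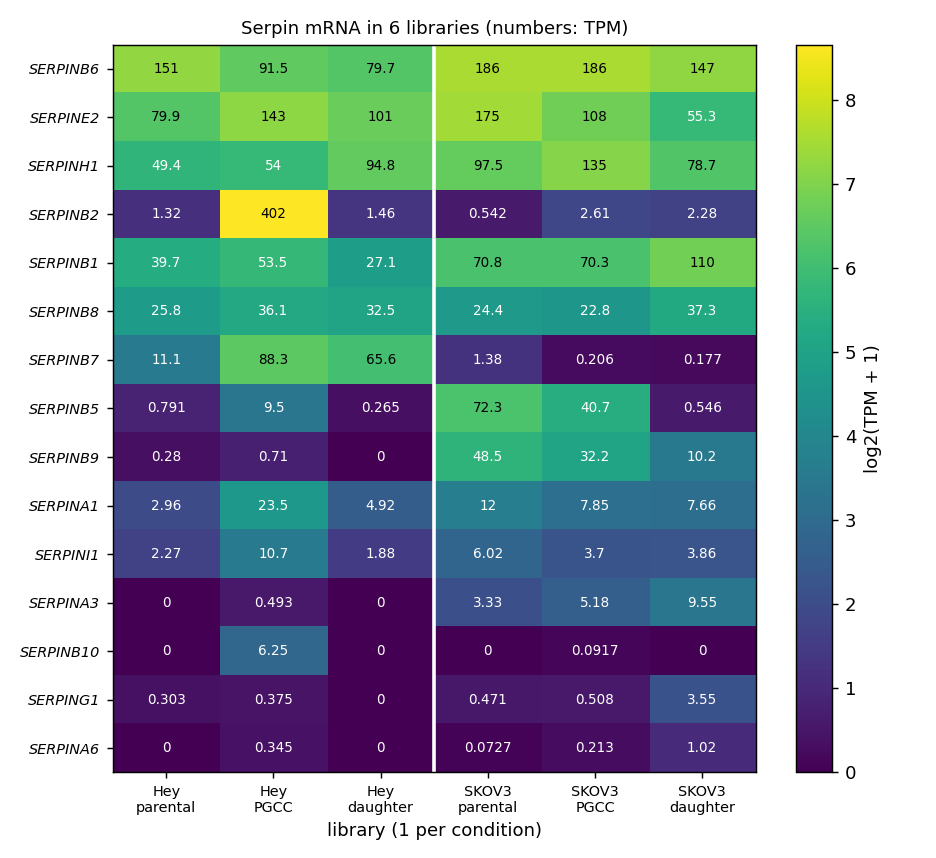
Heat map of the 15 described serpins with a TPM of at least 1 in some library, 1 column per library and 1 row per gene ordered by mean TPM. Colour shows log2(TPM + 1) and the printed numbers are TPM. SERPINB6 has 79.7 to 186 TPM across the columns, and SERPINB2 stands out in Hey PGCCs alone at 402 TPM.

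After the filter on a mean TPM of at least 1 over the 6 libraries, 14988 genes and 13 of the serpins were left. The genes were SERPINA1, SERPINA3, SERPINB1, SERPINB2, SERPINB5, SERPINB6, SERPINB7, SERPINB8, SERPINB9, SERPINB10, SERPINE2, SERPINH1 and SERPINI1. SERPINB10 passed through its value in 1 library only, and had to differ there. The comparisons within a line share libraries, since PGCCs and daughter cells were both set against the same parental library, so their counts are not independent of each other.

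The first question of the design is what distinguished PGCCs from the parental cells. In Hey, 6 of the 13 serpins were called higher in PGCCs, against 7.67% of all genes tested, and 0 were called lower, against 5.22%. The 6 were SERPINB2, SERPINB7, SERPINB10, SERPINA1, SERPINB5 and SERPINI1. In SKOV3, 1 of 13 was called higher, SERPINB2, against 9.94% of all genes, and 0 were called lower, against 4.96%. The median difference of the 13 genes was 0.83 in Hey and -0.09 in SKOV3, beside 0.00 and 0.02 over all genes tested. In Hey 12 of the 13 differences were positive, also after median-ratio scaling. The share of all genes with a positive difference was not counted. The 12 include SERPINB10, which had to differ, and small values such as that of SERPINH1 (0.13, and 0.05 after median-ratio scaling).

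SERPINB2 encodes PAI-2, an inhibitor of the urokinase plasminogen activator that is found mainly inside cells, and lies at chr18:63871692-63903888 (GENCODE 44, GRCh38, plus strand). Its TPM was 1.32 (parental), 402 (PGCC) and 1.46 (daughter) in Hey. In SKOV3 it was 0.542, 2.61 and 2.28. The Hey PGCC library was the single high one, and the other 5 lay between 0.542 and 2.61 TPM.
The difference between PGCCs and parental cells was 7.44 in Hey, a 304-fold ratio of TPM, and 1.23 in SKOV3. By its TPM the gene ranked 12139 among all genes in Hey parental cells and 282 in Hey PGCCs. In the Hey libraries compared here the leukocyte gene PTPRC was listed at 0, while CD68 was 46.3 TPM in parental cells and 69.3 TPM in PGCCs. The SKOV3 call of SERPINB2 rests on low values and was lost at a 3-fold threshold.

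SERPINB7, which encodes megsin and lies at chr18:63752935-63805376, had a TPM of 11.1 (parental), 88.3 (PGCC) and 65.6 (daughter) in Hey. In SKOV3 the TPM was 1.38, 0.206 and 0.177. Unlike SERPINB2, it stayed high in Hey daughter cells, and all 3 Hey libraries lay above all 3 SKOV3 libraries. The differences between PGCCs and parental cells were 2.88 in Hey and -0.98 in SKOV3.

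SERPINB5 encodes maspin, a clade B member without known inhibitory activity that is studied as a suppressor of tumour growth, and lies at chr18:63476958-63505085. Its TPM was 0.791 (parental), 9.50 (PGCC) and 0.265 (daughter) in Hey. In SKOV3 it was 72.3, 40.7 and 0.546. Parental SKOV3 cells had the highest level of the 6 libraries, and the daughter cells of both lines had the lowest levels of their line. The differences between PGCCs and parental cells were 2.55 in Hey and -0.81 in SKOV3.

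SERPINB10, a clade B gene known mainly from blood cells, lies next to SERPINB2 at chr18:63907958-63936111. The PGCC libraries held 6.25 TPM in Hey and 0.0917 TPM in SKOV3, and the gene was listed at 0 in the other 4. The difference on the log2(TPM + 1) scale was 2.86 in Hey and 0.13 in SKOV3.

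SERPINB2, SERPINB5, SERPINB7 and SERPINB10 all belong to the cluster of 10 serpins that spans 543 kb of chromosome 18. The remaining members were SERPINB3, SERPINB4 and SERPINB11, at most 0.473 TPM, SERPINB12 and SERPINB13, listed at 0, and SERPINB8, an inhibitor of furin, at 25.8, 36.1 and 32.5 TPM in Hey and 24.4, 22.8 and 37.3 TPM in SKOV3. SERPINB8 thus stayed between 22.8 and 37.3 TPM, with differences between states from -0.15 to 0.69. The 5 expressed genes that are not serpins and lie in the cluster or within 500 kb of it were PHLPP1, BCL2, KDSR, VPS4B and HMSD. Their median difference between PGCCs and parental cells was -0.12 in Hey. Of these 5, 0 were called higher, against 7.67% of all genes, so the count is near that share. Beside the serpin clusters of chromosomes 14 and 6, 2 of 7 and 2 of 11 such neighbours were called higher in Hey. In SKOV3 the median of the 5 neighbours on chromosome 18 was -0.07, and BCL2 was called lower at -1.41, against 4.96% of all genes. This look at position was chosen after the values were seen.

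**Figure D2:**
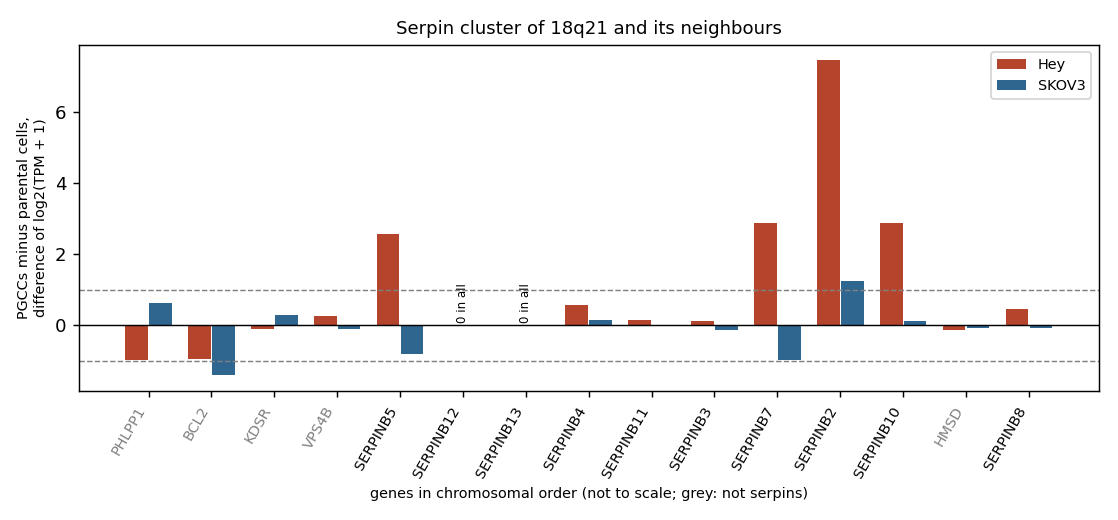
Bars of the difference of log2(TPM + 1) between PGCCs and parental cells for the 10 serpins of the chromosome 18 cluster and 5 neighbouring genes, in chromosomal order and not to scale, for Hey and SKOV3. Dashed lines mark a difference of 1 in either direction. In Hey, SERPINB5 (2.55), SERPINB7 (2.88), SERPINB2 (7.44) and SERPINB10 (2.86) pass the upper line, and none of the grey-labelled neighbours does. Of all genes tested, 7.67% were called higher in Hey PGCCs.

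SERPINA1 encodes α1-antitrypsin, the inhibitor of neutrophil elastase, and lies in the clade A cluster at chr14:94376747-94390693 on the minus strand. Its TPM was 2.96 (parental), 23.5 (PGCC) and 4.92 (daughter) in Hey, and 12.02, 7.85 and 7.66 in SKOV3. Hey PGCCs thus differed from parental cells by 2.63, and SKOV3 PGCCs by -0.56. SERPINI1, which encodes neuroserpin, an inhibitor of the tissue plasminogen activator, lies at chr3:167735243-167825569. Its TPM was 2.27, 10.7 and 1.88 in Hey and 6.02, 3.70 and 3.86 in SKOV3, with differences between PGCCs and parental cells of 1.84 and -0.58. Both genes were thus highest in PGCCs in Hey and in parental cells in SKOV3.

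Transcripts richer in GC had larger differences between SKOV3 PGCCs and parental cells. Across 13468 genes, which are not independent replicates, Spearman's rho between GC content and the difference was 0.72 in SKOV3 and -0.044 in Hey. The serpin transcripts of the chromosome 18 cluster have a low GC content, between 37.9% and 46.2%. With the trend in GC content and length removed, the same 6 serpins were called in Hey, and SERPINB2, at 1.70, was the only serpin called in SKOV3. SERPINB5, SERPINB7 and SERPINA1 kept negative values in SKOV3 (-0.33, -0.51 and -0.83), and that of SERPINI1 was -0.04. The gene lists that follow were not recomputed with this trend removed. Its part in their calls for SKOV3 PGCCs was not tested.

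**Figure D3:**
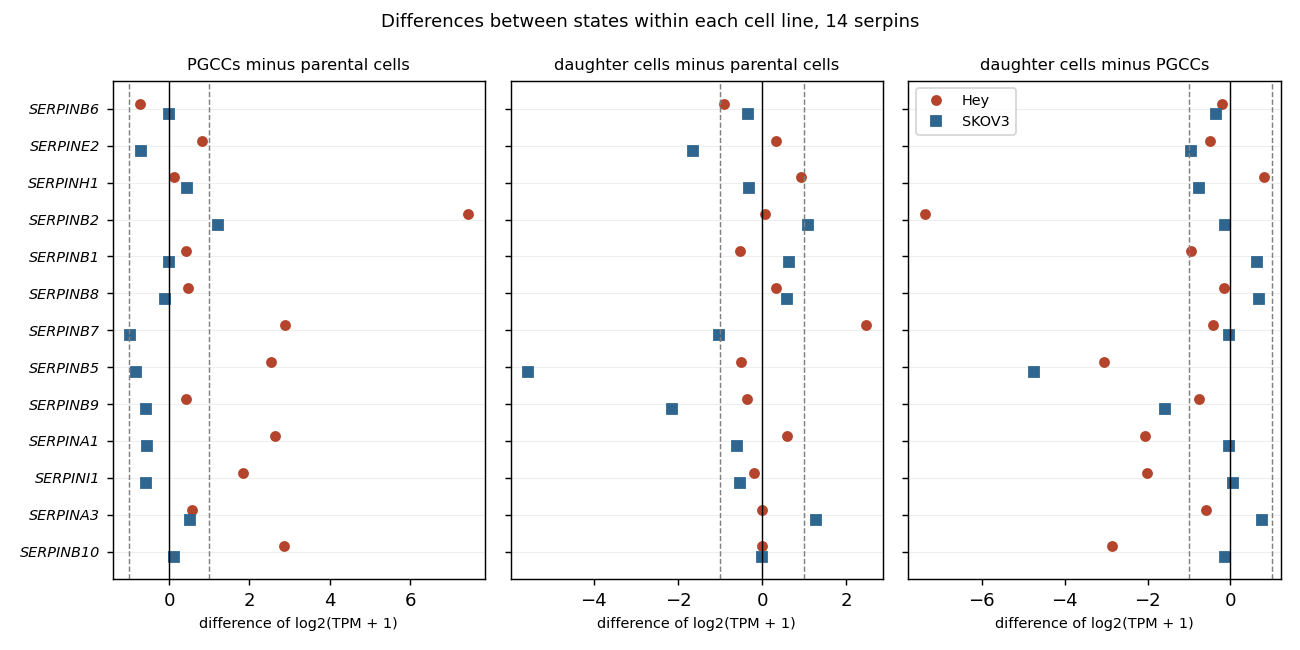
Differences of log2(TPM + 1) between states for the 13 serpins with a mean TPM of at least 1, in 3 panels with circles for Hey and squares for SKOV3, each from 1 library against 1 library. Dashed lines mark a difference of 1. In the left panel the Hey points of 6 serpins lie past the upper line, up to 7.44 for SERPINB2, and in the right panel the called serpins of both lines lie past the lower line.

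The second question is whether daughter cells returned to the parental pattern. In Hey, 1 of the 13 serpins, SERPINB7, was called higher in daughter than in parental cells, with a difference of 2.46, against 6.31% of all genes, and 0 were called lower, against 3.73%. In SKOV3, 2 of 13 were called higher, against 15.1% of all genes, and 4 were called lower, against 6.34%. The 4 lower genes were SERPINB5 (-5.57), SERPINB9 (-2.15), SERPINE2 (-1.65) and SERPINB7 (-1.02), and the 2 higher genes were SERPINA3 (1.29) and SERPINB2 (1.09). The call of SERPINB2 was lost after median-ratio scaling (0.91) and those of both higher genes after quantile normalization (0.91 for SERPINA3 and 0.66 for SERPINB2). The median of the 13 genes was 0.00 in Hey and -0.34 in SKOV3, beside 0.05 and 0.15 over all genes.

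Daughter cells were also set directly against PGCCs. In Hey 5 of 13 serpins were called lower in daughter cells, against 8.13% of all genes, and 0 were called higher, against 9.95%. These were 5 of the 6 that were higher in PGCCs, SERPINB2 (-7.36), SERPINB5 (-3.05), SERPINB10 (-2.86), SERPINA1 (-2.05) and SERPINI1 (-2.02), and the same PGCC library enters both comparisons. In SKOV3 2 of 13 were called lower, SERPINB5 (-4.75) and SERPINB9 (-1.57), against 9.25% of all genes, and 0 were called higher, against 14.6%. SERPINE2, at -0.95, lay just inside the threshold and was called lower after median-ratio scaling (-1.10), quantile normalization (-1.05) and removal of the trend in GC content and length (-1.22). Spearman's rho between GC content and the difference was -0.455 across genes in SKOV3 for daughter cells against PGCCs, and 0.103 in Hey. SERPINB5 was thus the single serpin called lower in the daughter cells of both lines compared with PGCCs. In limma's moderated two-sided test over both lines, with cell line as a term and 2 residual degrees of freedom, its difference was -3.90 (standard error 1.04), and the p was 0.00652 before adjustment and 0.908 after it.

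That test gave 0 of the 13 serpins an adjusted p under 0.05 in any of the 3 comparisons of states. It called 0.0200% of all genes for PGCCs against parental cells, 0.0133% for daughter against parental cells and 0% for daughter cells against PGCCs. At an unadjusted p under 0.05 by limma, 1 of these 13 was higher in PGCCs than in parental cells (SERPINB2), against 1.16% of all genes, 1 was lower in daughter than in parental cells (SERPINB5), against 0.961%, and 2 were lower in daughter cells than in PGCCs (SERPINB2 and SERPINB5), against 1.98%. The spread that this test uses is the disagreement between the lines, moderated by limma with the spread of all genes. The p-value of a serpin therefore rests in part on the spread of other genes.

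SERPINE2 encodes protease nexin 1, an inhibitor of thrombin and urokinase, and lies at chr2:223975045-224039318 on the minus strand. Its TPM was 79.9, 143 and 101 in Hey and 175, 108 and 55.3 in SKOV3, so the lines overlapped, with the highest level in PGCCs in Hey and in parental cells in SKOV3. Its differences between PGCCs and parental cells were 0.83 and -0.70.

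Of the 13 genes of the plasminogen activation list, which holds the activators, their receptors and plasminogen itself, 8 were tested. In PGCCs compared with parental cells, 1 was called higher in Hey (PLAT) and 1 in SKOV3 (LRP1), against 7.67% and 9.94% of all genes. In both lines 0 were lower, against 5.22% and 4.96%, and the medians were 0.29 and 0.36. PLAT, the tissue plasminogen activator, stood at 22.6 (parental), 126 (PGCC) and 9.39 (daughter) in Hey and 16.1, 28.5 and 12.4 in SKOV3. The differences between PGCCs and parental cells were 2.43 and 0.79. PLGRKT, a plasminogen receptor, had differences of 0.43 and -0.70, and ENO1, an enolase that also binds plasminogen, -0.74 and 0.38. In daughter cells compared with PGCCs, 2 of the 8, PLAT and LRP1, were called lower in both lines. The share of all genes was 8.13% in Hey and 9.25% in SKOV3. LRP1, the endocytic receptor that takes up serpin and protease complexes, also belongs to the clearance receptors, of which 7 are described and 5 were tested. In PGCCs, LRPAP1, a chaperone of these receptors, was called higher in both lines (1.34 in Hey and 1.81 in SKOV3), and LRP1 (1.11) was called higher in SKOV3. These were 1 of 5 in Hey and 2 of 5 in SKOV3, against 7.67% and 9.94% of all genes. LRP8 had differences of -0.64 and 0.02, and SORL1, a sorting receptor of the same family, 0.29 and 0.57.

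SERPINB9, SERPINB1 and SERPINB6 lie together on the short arm of chromosome 6 and encode intracellular inhibitors. SERPINB9, the inhibitor of granzyme B, lies at chr6:2887270-2903309. Its TPM was 48.5 (parental), 32.2 (PGCC) and 10.2 (daughter) in SKOV3, and 0.280, 0.710 and 0 in Hey. All 3 SKOV3 libraries lay above all 3 Hey libraries. SERPINB1, an inhibitor of neutrophil serine proteases at chr6:2832332-2841959, had a TPM of 39.7, 53.5 and 27.1 in Hey and 70.8, 70.3 and 110 in SKOV3. SERPINB6, a broad inhibitor at chr6:2948159-2972165, had a TPM of 151, 91.5 and 79.7 in Hey and 186, 186 and 147 in SKOV3. Neither SERPINB1 nor SERPINB6 was called in any comparison of states, their differences running from -0.96 to 0.64, although each passed the threshold under another scaling, SERPINB1 for Hey daughter cells against PGCCs and SERPINB6 for Hey daughter cells against parental cells (-1.01 and -1.04 after median-ratio scaling).

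SERPINH1 encodes HSP47, a chaperone of procollagen in the endoplasmic reticulum with no inhibitory role, and lies at chr11:75562056-75572783. Its TPM was 49.4 (parental), 54.0 (PGCC) and 94.8 (daughter) in Hey, and 97.5, 135 and 78.7 in SKOV3. By TPM, SERPINH1 was highest in daughter cells in Hey and in PGCCs in SKOV3. The differences between PGCCs and parental cells were 0.13 and 0.46. Its transcript has a GC content of 58.9%. With the trend in GC content and length removed, the differences were 0.17 in Hey and -0.19 in SKOV3, so the SKOV3 value changed sign.
Of the 22 genes of collagen folding in the endoplasmic reticulum, 20 were tested. In PGCCs, 2 were called higher in Hey (P4HA2 at 1.47 and P3H2 at 1.22, both prolyl hydroxylases) and 0 lower, and in SKOV3 1 was higher (P3H3 at 1.32) and 1 lower (PLOD2, a lysyl hydroxylase, at -1.01). Of all genes, 7.67% were called higher and 5.22% lower in Hey, and 9.94% and 4.96% in SKOV3. The medians of 0.18 and 0.19 stood beside 0.00 and 0.02 over all genes.

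Of the 44 serine proteases that were listed as possible serpin targets, 9 were tested, and the neutrophil proteases were not among these. In Hey PGCCs 3 were called higher, C1S (2.40) and C1R (1.26), proteases of the complement system that SERPING1 inhibits, and GZMA, granzyme A (2.18). In SKOV3 PGCCs 1 was called higher, FURIN (1.32), a protein convertase, and 0 were lower in either line. Of all genes, 7.67% were called higher and 5.22% lower in Hey, and 9.94% and 4.96% in SKOV3. SERPING1 itself, the C1 inhibitor, had a TPM of 0.303, 0.375 and 0 in Hey and 0.471, 0.508 and 3.55 in SKOV3, and did not pass the filter. Its level was highest in SKOV3 daughter cells.
Of the 11 cysteine cathepsins, some of which serpins of clades A and B inhibit, 10 were tested. In Hey PGCCs 2 were called higher, CTSS (3.02) and CTSL (1.09), while CTSK (0.89) and CTSB (0.11) were not. In SKOV3 PGCCs 0 were called in either direction, and the medians were 0.46 in Hey and -0.14 in SKOV3. The shares of all genes called are those given for the serine proteases.

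Other protease inhibitors were counted for comparison, 12 of 28 being tested. In Hey PGCCs 4 were called higher, against 7.67% of all genes, with a median of 0.59. They were PI3 (elafin, listed at 0 in parental cells and at 24.7 TPM in PGCCs), TFPI2 (92.9 and 727 TPM), SLPI (1.37 and 14.5 TPM) and CSTA (1.83 and 9.93 TPM). CSTA passed the filter only through its Hey PGCC value, being at most 1.83 TPM in the other libraries. Its calls against that library thus follow in part from the filter. In SKOV3 PGCCs 1 was called higher, SPINT1 (1.36), against 9.94% of all genes, and the median was 0.03. PI3, TFPI2 and SLPI had differences of -0.02, -0.60 and 0.15 there, and CSTA was listed at 0 in both libraries. In daughter cells compared with PGCCs, 6 of the 12 were called lower in Hey and 5 in SKOV3, with PI3 among both, against 8.13% and 9.25% of all genes. In the same comparison 0 were called higher in Hey, against 9.95% of all genes, and 2 in SKOV3, TFPI (2.38) and TFPI2 (2.25), against 14.6%. TFPI and TFPI2, which encode the tissue factor pathway inhibitors, were called lower in Hey (-2.28 and -2.05). AGT, which encodes angiotensinogen and shares the serpin fold under another symbol, was at most 0.0875 TPM.

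The last comparison sets the lines against each other. SERPINB7 was at least 2-fold higher in Hey in all 3 states, 1 of 13 serpins against 4.71% of all genes. SERPINB9 and SERPINA3 were at least 2-fold lower in Hey in all 3 states, 2 of 13 against 11.5%. The filter bears on these calls. SERPINB9 and SERPINA3, at most 0.710 and 0.493 TPM in Hey, passed it through their SKOV3 values. SERPINB7, at most 1.38 TPM in SKOV3, passed it through its Hey values. The median difference of all genes, Hey minus SKOV3, ran from -0.29 in parental to -0.38 in daughter cells and was -0.35 for PGCCs. SERPINB7 differed by 2.35, 6.21 and 5.82, SERPINB9 by -5.27, -4.28 and -3.48 and SERPINA3 by -2.11, -2.05 and -3.40. All of these were larger than the shift of all genes.
SERPINA3 encodes α1-antichymotrypsin, an inhibitor of cathepsin G and an acute-phase protein, and lies at chr14:94612384-94624055. Its TPM was 0, 0.493 and 0 in Hey and 3.33, 5.18 and 9.55 in SKOV3. SERPINA6, the corticosteroid-binding globulin and a hormone carrier, reached 1.02 TPM in SKOV3 daughter cells and was at most 0.345 TPM in the other 5 libraries.

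In the limma fit with state as a term, the same 3 of the 13 serpins had an adjusted p under 0.05 between the lines, 1 higher in Hey against 6.27% of all genes and 2 lower against 14.4%. The difference of SERPINB9 was -4.35 (standard error 0.44, adjusted p of 0.00104 by limma). SERPINB7 followed at 4.79 (standard error 0.72, adjusted p of 0.0052 by limma) and SERPINA3 at -2.52 (standard error 0.47, adjusted p of 0.0115 by limma). Each held the same direction in all 3 states, and each passed the filter through the line in which it is high. Without the PGCC libraries 0 serpins and 0 genes of the table passed by limma, 1 of the 13 serpins being higher, against 8.08% of all genes, and 3 lower, against 19.2%, at an unadjusted p under 0.05. These p-values compare the libraries of 2 lines, with the 3 states as the repeat.
SERPINB5 is the counterpart, a gene whose line difference was unlike in the 3 states. Hey minus SKOV3 it was -5.36 (parental), -1.99 (PGCC) and -0.29 (daughter), with an adjusted p of 0.0719 by limma for the line. Each of these differences rests on 1 library per line, and a dependence on the state was not tested. Spearman's rho between GC content and the difference of the lines was -0.367 across genes for PGCCs. SERPINB2 differed by 0.59, 6.80 and -0.42, so its levels in parental and daughter cells of the lines lay within 2-fold of each other on the TPM + 1 scale.

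**Figure D4:**
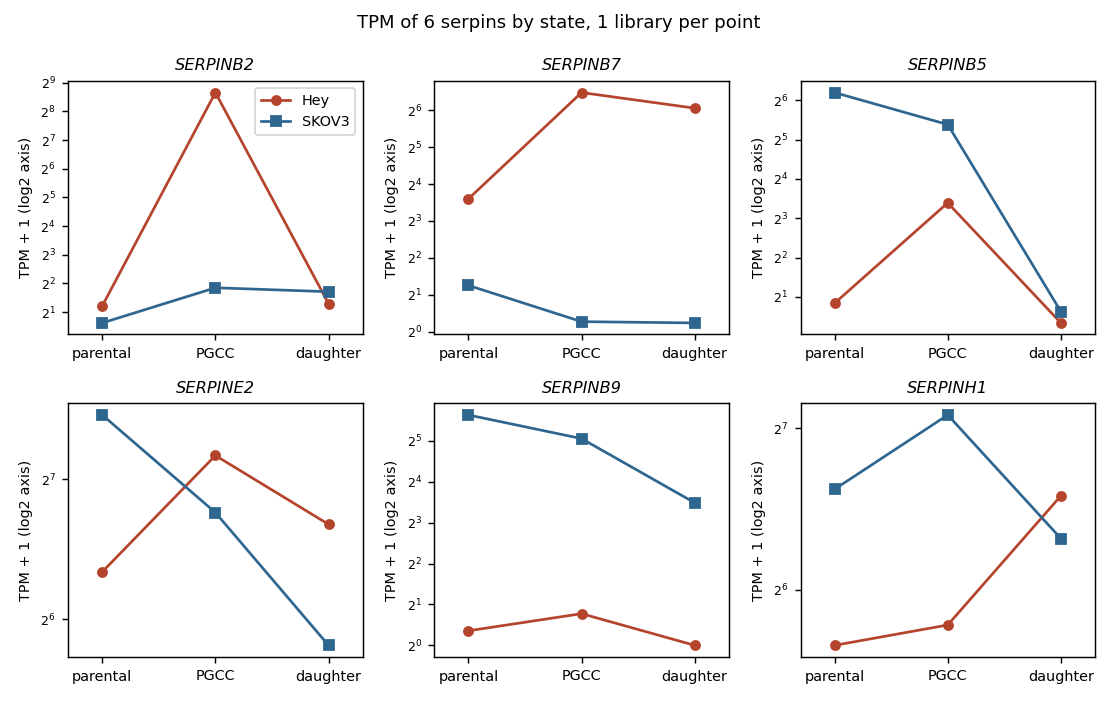
TPM + 1 on a log2 axis in parental cells, PGCCs and daughter cells for 6 serpins, 1 library per point, with circles for Hey and squares for SKOV3. SERPINB7 and SERPINB9 keep the lines apart in every state, SERPINB2 peaks in Hey PGCCs at 402 TPM, SERPINB5 is low in the daughter cells of both lines (0.265 and 0.546 TPM), and the lines of SERPINE2 and SERPINH1 cross.

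Among the 29 described serpins with a TPM above 0, 14 had their highest value in Hey PGCCs, 6 in SKOV3 daughter cells, 4 in SKOV3 parental cells, 3 in SKOV3 PGCCs and 1 each in Hey parental and Hey daughter cells. Over all genes with a TPM above 0, Hey PGCCs held the highest value for 19.6%. This share was 29.46% in SKOV3 daughter cells, 13.99% in SKOV3 parental cells and 19.16% in SKOV3 PGCCs. It was 6.774% in Hey parental and 11.04% in Hey daughter cells. Most of the 14 serpins stayed under 1 TPM, such as SERPINB11 (0.118 TPM) and SERPINI2 (0.224 TPM). Hey PGCCs also had the most genes above 0, 25370. Of the 13 serpins tested, 5 were highest in Hey PGCCs, where 11.1% of all genes tested were. In SKOV3, 3 were highest in daughter cells, 3 in parental cells and 2 in PGCCs. The shares of all genes tested were 30.4%, 15.41% and 22.1% there.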

How the data were processed

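RNA-seq was performed on 6 libraries, 1 for each of the 3 states of Hey and SKOV3. The authors mapped the reads to the human transcriptome (hg38) with salmon 0.14.1, and fastp is named in the submitters' processing notes. They deposited TPM values per gene symbol. How transcripts were combined and the annotation release are not given in the sources used here. TPM carry no read counts, so depth per gene is unknown and no counting error is given.

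TPM were used as deposited. Differences of log2(TPM + 1) were taken within a line or between lines and called at 1, and counted over genes whose mean TPM over the 6 libraries reached 1. These genes were also fitted in limma 3.58.1 (R 4.3.3) with state and cell line as terms, an intensity trend and Benjamini-Hochberg adjustment over all genes. Other steps used Python 3.11.15 with statsmodels 0.14.6. Positions, GC content and length of the canonical transcript are those of GENCODE release 44 (GRCh38) and were found for the 34 serpins and for 13468 of the 14988 genes. The trend in GC content and log length was removed in 2 lowess passes (fraction 0.3). The steps were tested on simulated data. Every described serpin with a TPM of at least 1 in a library is named with its values, and of each gene list the 4 genes with the largest difference between PGCCs and parental cells. The rule finds 35 symbols, and 1 of them and 1 gene of a list are not reported here and enter no count of serpins, no list and no median, though both stayed in the fits over all genes. Serpins and lists were chosen with earlier results of these data known. The position of the chromosome 18 cluster and the promoter motifs were looked at after the values were seen. The alternatives were a pseudocount of 0.1, no filter, a mean TPM of at least 5, median-ratio scaling, quantile normalization, removal of mitochondrial genes, thresholds of 1.5-fold and 3-fold, removal of the GC and length trend and, for limma, no trend, no cell line term and leaving out each state.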

Additional observations from a re-analysis of the deposited data

Results flagged for a closer look

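A few serpins moved in opposite directions in the 2 lines, by at least 2-fold in 1 line and by at least 0.5 on the log2(TPM + 1) scale the other way in the other. In PGCCs compared with parental cells these were SERPINB7 (2.88 in Hey and -0.98 in SKOV3), SERPINA1 (2.63 and -0.56), SERPINB5 (2.55 and -0.81) and SERPINI1 (1.84 and -0.58). In daughter cells compared with parental cells it was SERPINB7 (2.46 and -1.02). With 1 library per condition the difference between the lines was not tested. After removal of the trend in GC content and length, the SKOV3 values in PGCCs were -0.04 for SERPINI1 and -0.33 for SERPINB5, short of the 0.5 required, so these 2 genes were no longer among those that moved in opposite directions. SERPINB7 (-0.51) and SERPINA1 (-0.83) still were, the former narrowly.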

How the results depend on the processing

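Of 81 recomputed counts, 65 stayed within 1.5 times their value, and of 390 recomputed differences of single serpins 369 kept their side of the threshold and 21 did not, with 0 called differences changing sign. The 6 serpins higher in Hey PGCCs than in parental cells were called in every setting, except SERPINB10 and SERPINI1 at a mean TPM of at least 5, which removes them. For SKOV3 PGCCs against parental cells the count of 1 became 2 with a pseudocount of 0.1 or without mitochondrial genes (SERPINB7 joining as lower), 4 at 1.5-fold and 0 at 3-fold. For Hey daughter against parental cells the count of 1 became 3 with the lower pseudocount or at 1.5-fold and 2 under median-ratio scaling, without mitochondrial genes or with the GC and length trend removed. For SKOV3 daughter against parental cells, 3 of 6 were left at 3-fold. For daughter cells against PGCCs the 5 in Hey became 3 at a mean TPM of at least 5 and 8 at 1.5-fold, and the 2 in SKOV3 became 7 at 1.5-fold and 1 at 3-fold. Between the lines limma called 3 of the 13 described serpins, 1 without a filter, and between 0 (without the PGCC libraries) and 4 when a state was left out, the smallest adjusted p of a described serpin by limma lying between 0.000521 and 0.0855 over the alternatives. Without the PGCC libraries 1 residual degree of freedom is left. Median-ratio scaling moved the median difference of all genes between the lines from -0.29, -0.35 and -0.38 to -0.01, -0.08 and -0.02, and that of SKOV3 daughter against parental cells from 0.15 to -0.02, while leaving out mitochondrial genes moved that of Hey PGCCs from 0.00 to 0.11 and that of SKOV3 daughter cells against PGCCs from 0.12 to 0.22. Beyond cell line, which limma kept as a term pairing the libraries of a line, no paired analysis was possible because each condition has 1 library. Depth per gene is unknown, so values under 1 TPM may rest on few reads.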
